A study of Danio rerio with 8 samples.

Results

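The heat shock and endoplasmic reticulum (ER) stress genes were 40 zebrafish genes listed by their RefSeq symbols, in a cytosolic arm of 19 genes and an ER arm of 21 genes. Probes of an expression array were assigned to them through the transcript accession of each probe. The lists were matched by 103 of the 43603 probes on the array, and 35 of the 40 genes had a probe, among 13293 genes with a RefSeq symbol on the array. All 103 probes gave a signal well above background on all 8 arrays. The cytosolic arm held 15 measured genes with 47 probes, and 3 of its genes encode mitochondrial chaperones. The ER arm held 20 measured genes with 56 probes. No probe was matched to hsf1, hsp70.1, hsp70.2, hsph1 or ern1, which were not analysed here.

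Gene expression was measured in whole zebrafish larvae at 96 h post-fertilization (hpf) on 1-color Agilent arrays, after exposure of embryos to ZnO NPs (nanoparticles of zinc oxide, 2.64 mg/L, 3 arrays), to ZnSO4 (the soluble zinc salt, 7.75 mg/L, 3 arrays) or to neither (control, 2 arrays). Per the study's methods, both concentrations were those estimated to kill the same share of the larvae, each array held RNA of larvae pooled from a beaker, and the treatments were run in triplicate, of which 2 control arrays were used here. In RNA of whole larvae, fewer cells that express a gene and less RNA of it per cell cannot be told apart. Exposure to ZnSO4 addresses which changes dissolved zinc gives without particles.

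In the cytosol, unfolded proteins free the heat shock factors, transcription factors that switch on genes of the HSP70, HSP90, HSP40 and small heat shock protein families. In the ER, the unfolded protein response runs through the sensors Ire1, Perk and Atf6, which raise ER chaperones, enzymes of protein folding and the machinery that removes misfolded proteins. Both are known as early responses to metals and to other agents that damage proteins.

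A level below is the log2 signal of a probe relative to the 75th percentile of its array, so that levels of different probes were not set against each other. Where a gene had several probes, the one with the highest mean signal over the 8 arrays, its leading probe, stands for the gene. The 8 arrays lay on 1 slide. One side of that slide carried the controls with ZnO NP replicates 1 and 2, the opposite side ZnO NP replicate 3 with the ZnSO4 samples. No control array lay beside the ZnSO4 samples, so the side could be fitted as a block only through the ZnO NP arrays, which gave the ZnSO4 values larger standard errors. Between 77.5% and 85.8% of all probes were well above background per array. The 2 control arrays differed from each other in organ markers. The summed signal of 10 exocrine pancreas markers, relative to the 75th percentile, was 176 in control replicate 1 and 511 in replicate 2, and that of 7 lens markers was 430 and 204. Metallothionein mt2, which binds zinc and responds to it, had levels of 4.13 and 3.81 on the control arrays, of 4.47, 4.84 and 5.29 with ZnO NPs and of 4.99, 4.92 and 5.04 with ZnSO4. Its level was above both controls on all 6 arrays of exposed larvae, by 0.90 and 1.02 on the log2 scale, with adjusted p = 0.108 and 0.161.

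No member was called in either exposure. The call required a Benjamini-Hochberg adjusted p under 0.05 over the 34616 probes tested with limma and a fold change of at least 1.5. With ZnO NPs 0 of the 103 member probes were called, against 0.0433% of all probes tested, and with ZnSO4 0 of 103, against 0.0231%. Between the treatments 0 of 103 were called, and the share over all probes was 0.0%. The smallest adjusted p among members was 0.0975 for ZnO NPs, 0.164 for ZnSO4 and 0.809 between them. At an unadjusted p under 0.05, 4 member probes were higher and 8 lower with ZnO NPs, where 15.1% of all probes were higher and 10.0% lower. With ZnSO4, 5 were higher and 13 lower, where 9.16% of all probes were higher and 9.22% lower. These splits depended on the scaling and on the control array. With a median shift in place of the 75th percentile, 0 were higher and 14 lower with ZnO NPs and 0 and 21 with ZnSO4, and with normexp background correction and quantile normalization 8 and 9, and 8 and 11. Without control replicate 1 they were 8 higher and 7 lower with ZnO NPs and 10 and 8 with ZnSO4, and with the slide's side as a block 8 and 7, and 6 and 6. Shares of all probes under these settings are not given, so these counts do not set the members apart from other probes. The median shift also moved the median log2 fold change of all probes, from 0.0309 and 0.018 to -0.055 and -0.0437. One-way ANOVA with LSD comparisons (unadjusted, with the same fold) called 5 member probes lower with ZnO NPs and 6 with ZnSO4, against 0.644% and 0.725% of all probes, and 0 between the treatments. An unadjusted p under 0.05 in limma with the same fold gave 6 and 6, all lower, against 0.953% and 1.01%. In both exposures these were the 3 probes of hsp90aa1.1 and the 3 of serpinh1b. Probes of the same gene are not independent, so the 6 do not count as separate members.

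The arms were counted apart. In the cytosolic arm, 0 probes were higher and 5 lower at an unadjusted p under 0.05 with ZnO NPs, and 0 and 8 of the 47 with ZnSO4. The lower probes were 10.64% of the arm with ZnO NPs and 17.02% with ZnSO4, where 10.0% and 9.22% of all probes were lower. In each exposure they included the 3 probes of hsp90aa1.1. Of all probes, 15.1% were higher with ZnO NPs and 9.16% with ZnSO4. All exposed arrays were below both controls for 12 probes with ZnO NPs and 19 with ZnSO4, where 18.2% and 19.6% of all probes showed this. They were above both controls for 1 and 0 probes, where 23.7% and 19.6% of all probes did. In the ER arm, 4 probes were higher and 3 lower with ZnO NPs, and 5 and 5 of the 56 with ZnSO4. Their shares were 7.14% higher and 5.36% lower with ZnO NPs and 8.93% each with ZnSO4, beside the same shares of all probes. All 3 lower probes with ZnO NPs were of serpinh1b, and the lower ones with ZnSO4 were of serpinh1b, dnajb9a and pdia3. Groups did not overlap for 13 probes above and 6 below with ZnO NPs, and for 12 above and 8 below with ZnSO4. The median log2 fold change over leading probes was -0.107 with ZnO NPs and -0.167 with ZnSO4 in the cytosolic arm, and 0.0052 and -0.0014 in the ER arm. Over all probes tested it was 0.0309 and 0.018. Relative to the control mean, the median of the cytosolic arm was -0.131, -0.0566 and -0.097 on the ZnO NP arrays, and -0.118, -0.207 and -0.161 on the ZnSO4 arrays. The 2 control arrays themselves lay at 0.114 and -0.114, so only 4 of the 6 exposed arrays were below both. For the ER arm the exposed arrays lay between -0.0365 and 0.0152, inside the control range of -0.0591 to 0.0591. Both exposures were compared with the same control arrays. None of the organ markers was called either. The median log2 fold change of the 7 lens markers was -0.41 with ZnO NPs and -0.70 with ZnSO4, with 2 and 6 of them below both controls on all exposed arrays. That of the 5 liver markers was -0.45 and -0.15, with 3 and 3 below. The medians of connective tissue markers were 0.18 and 0.02, and those of neural markers 0.12 and 0.02. Those of erythroid markers were 0.175 and -0.0066, and those of exocrine pancreas markers -0.25 and 0.16. For skeletal muscle they were -0.07 and -0.12, for heart -0.055 and -0.071, and for epidermis -0.11 and -0.22. The part of organ content in the median of the cytosolic arm was not tested.

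**Figure D1:**
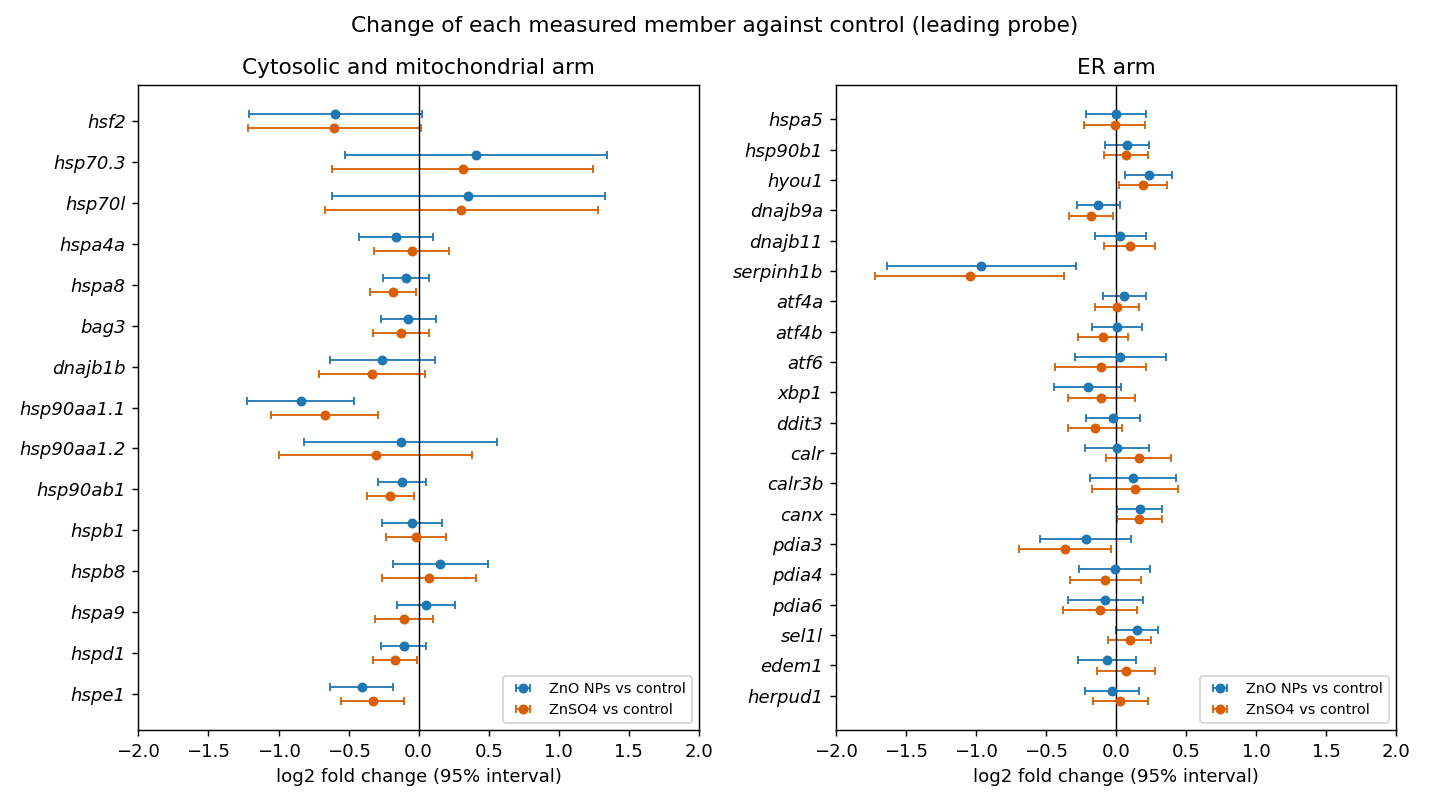
Log2 fold change against control of the leading probe of each of the 35 measured members, with its 95% interval from limma, for ZnO NPs (blue) and ZnSO4 (orange), in the cytosolic and mitochondrial arm (left) and the ER arm (right). The values of hsp90aa1.1, hspe1 and serpinh1b lie below 0 with their intervals in both exposures, and the intervals of hsp70.3, hsp70l and hsp90aa1.2 are the widest that include 0. The intervals assume the same spread in all 3 groups.

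The heat shock factor hsf2 is a regulator of heat shock genes that is also active in development. Its level was 1.45 and 0.39 on the control arrays, 0.24, 0.41 and 0.32 with ZnO NPs, and 0.39, 0.22 and 0.35 with ZnSO4. All 6 exposed arrays lay near control replicate 2, and control replicate 1 stood above them. The change on the log2 scale was -0.59 with ZnO NPs (SE 0.26, adjusted p = 0.211) and -0.60 with ZnSO4 (adjusted p = 0.279). Without control replicate 1 it was -0.0651 and -0.0725.

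The inducible HSP70 genes hsp70l and hsp70.3 encode chaperones that bind unfolded protein and are commonly read as the marker of a heat shock response in zebrafish. For hsp70l the level was 2.68 and 1.15 in the controls, 2.16, 1.94 and 2.71 with ZnO NPs, and 2.11, 2.28 and 2.27 with ZnSO4. For hsp70.3 it was 1.99 and 0.57 in the controls, 1.53, 1.38 and 2.16 with ZnO NPs, and 1.44, 1.66 and 1.69 with ZnSO4. In both genes every ZnSO4 array and ZnO NP replicates 1 and 2 lay between the 2 controls, and ZnO NP replicate 3 lay slightly above control replicate 1. The log2 fold change of hsp70l was 0.35 (95% interval -0.62 to 1.33) with ZnO NPs and 0.31 (-0.67 to 1.28) with ZnSO4. For hsp70.3 it was 0.41 (-0.53 to 1.34) and 0.31 (-0.62 to 1.25). The direction depended on the control array: without control replicate 1 the changes of hsp70l were 1.12 and 1.07 (adjusted p = 0.264 and 0.314), and without replicate 2 they were -0.41 and -0.46. Those of hsp70.3 were 1.12 and 1.02 without replicate 1 and -0.30 and -0.39 without replicate 2. The arrays hold near-identical HSP70 genes, and whether the probes of hsp70l and hsp70.3 also take up transcripts of hsp70.1 and hsp70.2 was not tested.

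The other HSP70 machinery varied less. The constitutive chaperone hspa8 had 11 probes with log2 fold changes of -0.10 to 0.01 with ZnO NPs. On its leading probe the level was 6.91 and 6.81 in the controls, 6.79, 6.80 and 6.71 with ZnO NPs, and 6.64, 6.65 and 6.73 with ZnSO4. On this probe all exposed arrays were below both controls, by a small amount, at -0.09 (adjusted p = 0.435) in log2 fold change and -0.18 (adjusted p = 0.242). On its other probes the ZnO NP arrays overlapped the controls. With ZnSO4 the 11 probes ranged from -0.18 to -0.03. The nucleotide exchange factor of the HSP110 family hspa4a had levels of 0.01 and -0.22 in the controls, -0.27, -0.33 and -0.20 with ZnO NPs, and 0.03, -0.23 and -0.26 with ZnSO4. These groups overlapped, and its 3 probes ranged from -0.16 to 0.25 in the log2 fold change with ZnO NPs, so they did not share a sign. The HSP40 co-chaperone dnajb1b, which hands substrates to HSP70, gave log2 fold changes of -0.26 and -0.34 (adjusted p = 0.345 and 0.313), with all ZnSO4 arrays below both controls. The co-chaperone bag3, which links HSP70 to autophagy and is prominent in muscle, differed by -0.07 and -0.13.

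**Figure D2:**
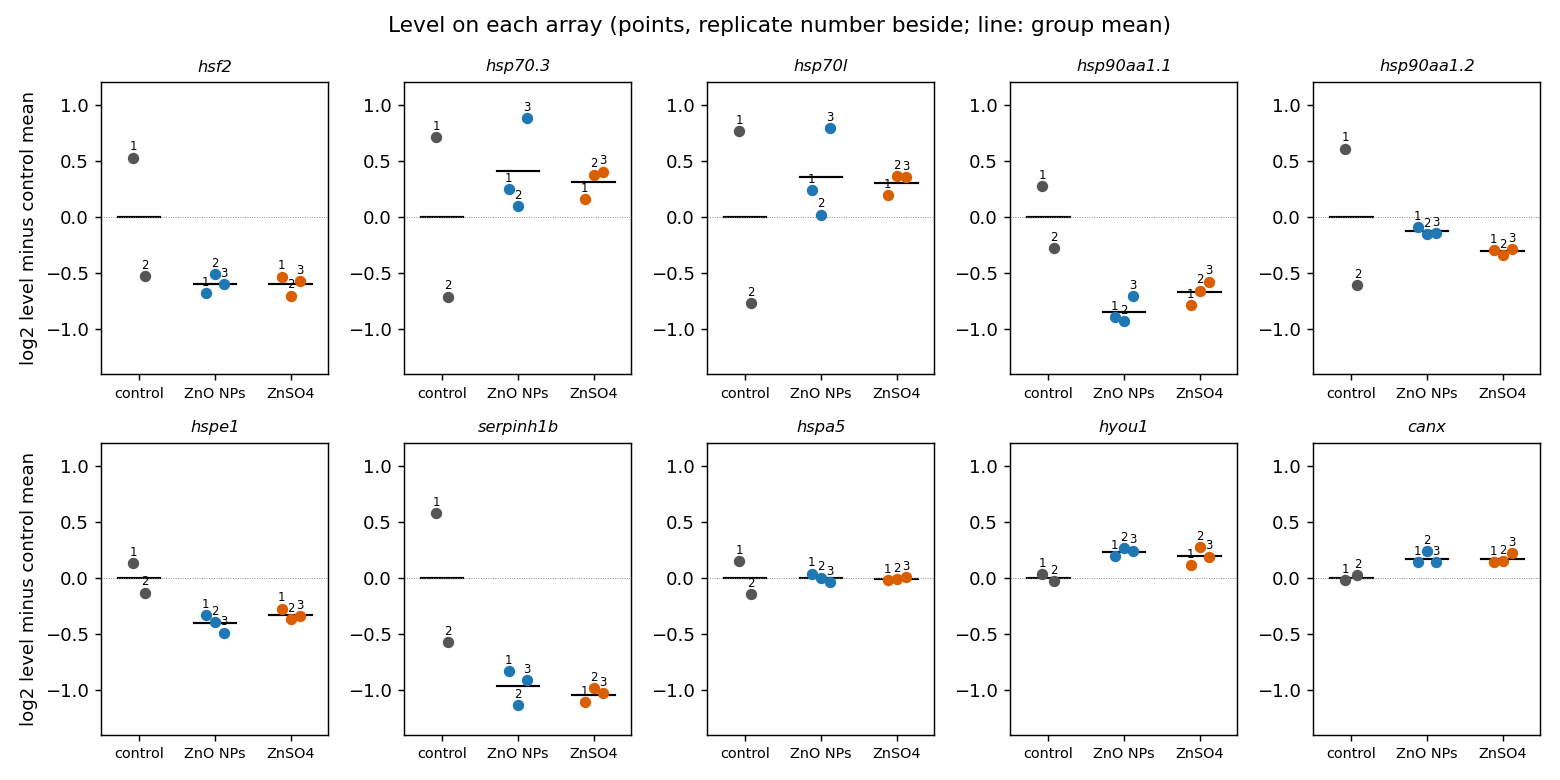
Level of the leading probe of 10 members on each of the 8 arrays, as the log2 difference from the mean of the control arrays, with the replicate number beside each point and a line at each group mean. The control points of hsf2, hsp70.3, hsp70l, hsp90aa1.2 and serpinh1b lie more than 1 apart, all exposed points of hsp90aa1.1, hspe1 and serpinh1b lie below both controls, and those of hyou1 and canx lie above both.

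Of the HSP90 genes, hsp90aa1.1 had the smallest adjusted p of all members in the comparison with ZnO NPs. It encodes the HSP90 form that zebrafish use in developing striated muscle, where it folds myosin. Its level was 4.17 and 3.61 in the controls, 3.00, 2.96 and 3.19 with ZnO NPs, and 3.11, 3.24 and 3.32 with ZnSO4. Every exposed array was below both controls. Its log2 fold change was -0.84 with ZnO NPs (SE 0.16, 95% interval -1.22 to -0.46, adjusted p = 0.0975) and -0.67 with ZnSO4 (-1.05 to -0.29, adjusted p = 0.164). The other 2 probes of the gene gave -0.78 and -0.81 with ZnO NPs, and -0.62 and -0.66 with ZnSO4. Within the side of the slide that held both controls and ZnO NP replicates 1 and 2, ZnO NP levels were also the lower ones. Without control replicate 1 the log2 fold change was -0.56 and -0.39 (adjusted p = 0.235 and 0.395), and without control replicate 2 it was -1.12 and -0.95 (adjusted p = 0.0137 and 0.0213). The summed signal of 9 skeletal muscle markers was 1514 to 1605 in the controls, 1469 to 1521 with ZnO NPs and 1389 to 1510 with ZnSO4. At an unadjusted p under 0.05, 1 of these markers was higher and 1 lower with ZnO NPs, where 15.1% of all probes were higher and 10.0% lower. With ZnSO4 these were 0 and 1, where 9.16% of all probes were higher and 9.22% lower. All exposed arrays were below both controls for 3 of the 9 muscle markers with ZnO NPs and 4 with ZnSO4. They were above both controls for 1 and 1. Of all probes, 18.2% and 19.6% were below in this way, and 23.7% and 19.6% above. The part of muscle content in the value of hsp90aa1.1 was not tested.

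The second cytosolic HSP90 alpha gene, hsp90aa1.2, had another pattern over the arrays. Its level was 2.68 and 1.46 in the controls, 1.98, 1.92 and 1.93 with ZnO NPs, and 1.78, 1.74 and 1.79 with ZnSO4. On the other probes of the gene the SD was 0.19 with ZnO NPs and 0.07 to 0.12 with ZnSO4. On 1 of these, ZnO NP replicate 2 (0.39) was below both controls (1.36 and 0.46). On the leading probe the arrays of each exposure lay close together (SD 0.03), and they all lay between the controls. The log2 fold change was -0.13 (SE 0.30) and -0.31 (SE 0.30), without control replicate 1 it was 0.48 and 0.30, and without replicate 2 it was -0.74 and -0.92 (adjusted p = 0.0116 and 0.0053). The constitutive hsp90ab1 had levels of 8.51 and 8.48 in the controls, 8.37, 8.45 and 8.31 with ZnO NPs, and 8.36, 8.27 and 8.25 with ZnSO4. All exposed arrays were lower, by -0.12 and -0.20 in the log2 fold change (adjusted p = 0.33 and 0.225).

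The small heat shock proteins hold unfolded proteins in a form that can be refolded. Neither hspb1 nor hspb8 separated the groups. The log2 fold change of hspb1 was -0.05 and -0.02, with a 95% interval of -0.27 to 0.17 for ZnO NPs. That of hspb8 was 0.16 and 0.08. On leading probes, hspb8 was the one cytosolic member that was lower in control replicate 1 than in replicate 2, at -1.86 against -1.38.

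The mitochondrial chaperones hspd1 (Hsp60) and hspe1 (Hsp10) form the folding chamber of the matrix. For hspe1 the level was 5.23 and 4.97 in the controls, 4.77, 4.70 and 4.61 with ZnO NPs, and 4.82, 4.73 and 4.76 with ZnSO4. All 6 exposed arrays were below both controls, with a log2 fold change of -0.41 (SE 0.10, 95% interval -0.63 to -0.18, adjusted p = 0.107) and -0.33 (-0.55 to -0.10, adjusted p = 0.189). For hspd1 the level was 2.14 on both control arrays, 2.03, 2.09 and 1.99 with ZnO NPs, and 2.03, 1.99 and 1.91 with ZnSO4. On this leading probe hspd1 too was lower on every exposed array, by -0.11 and -0.17 in the log2 fold change (adjusted p = 0.351 and 0.257). The second probe of hspd1 gave -0.34 and -0.15 (adjusted p = 0.141 and 0.512), and there ZnSO4 replicate 1 was above both controls. The matrix HSP70 hspa9 had levels of -0.63 and -0.77 in the controls, -0.74, -0.52 and -0.67 with ZnO NPs, and -0.77, -0.77 and -0.86 with ZnSO4. Its groups overlapped with ZnO NPs, at 0.05 in the log2 fold change, and lay below control with ZnSO4, at -0.10 (adjusted p = 0.547).

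Several heat shock genes differed between the 2 control arrays, a comparison made after the values were seen. Between these arrays, 11 of the 103 member probes were at least 2-fold higher in control replicate 1 and 0 were at least 2-fold lower, against 0.705% and 1.6% of all probes. The 11 probes were those of hsf2, hsp70.3, hsp70l and serpinh1b and 2 of the 4 of hsp90aa1.2. The log2 difference was 1.53 for hsp70l, 1.42 for hsp70.3, 1.22 for hsp90aa1.2, 1.15 for serpinh1b and 1.06 for hsf2, followed by 0.56 for hsp90aa1.1 and 0.44 for dnajb1b. On the leading probes of the constitutive members hspa8 and hsp90ab1 it was 0.09 and 0.03. The other probes of hsp90ab1 ranged from -0.15 to -0.005, and the median over all probes was -0.0307. On the leading probes, 31 of the 35 members were higher in control replicate 1. This held for 72 of the 103 member probes and for 15525 of 34615 probes tested. Leaving out control replicate 2 gave 10 called member probes with ZnO NPs and 8 with ZnSO4, all lower, against 1.21% and 1.02% of all probes. Leaving out control replicate 1 gave 0 and 0, against 0.095% and 0.0977% lower over all probes. These calls assume that the lone control array varied like the exposed ones. Lens and exocrine pancreas markers also differed between the control arrays, as given above, and their part in the difference of the heat shock genes was not tested.

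**Figure D3:**
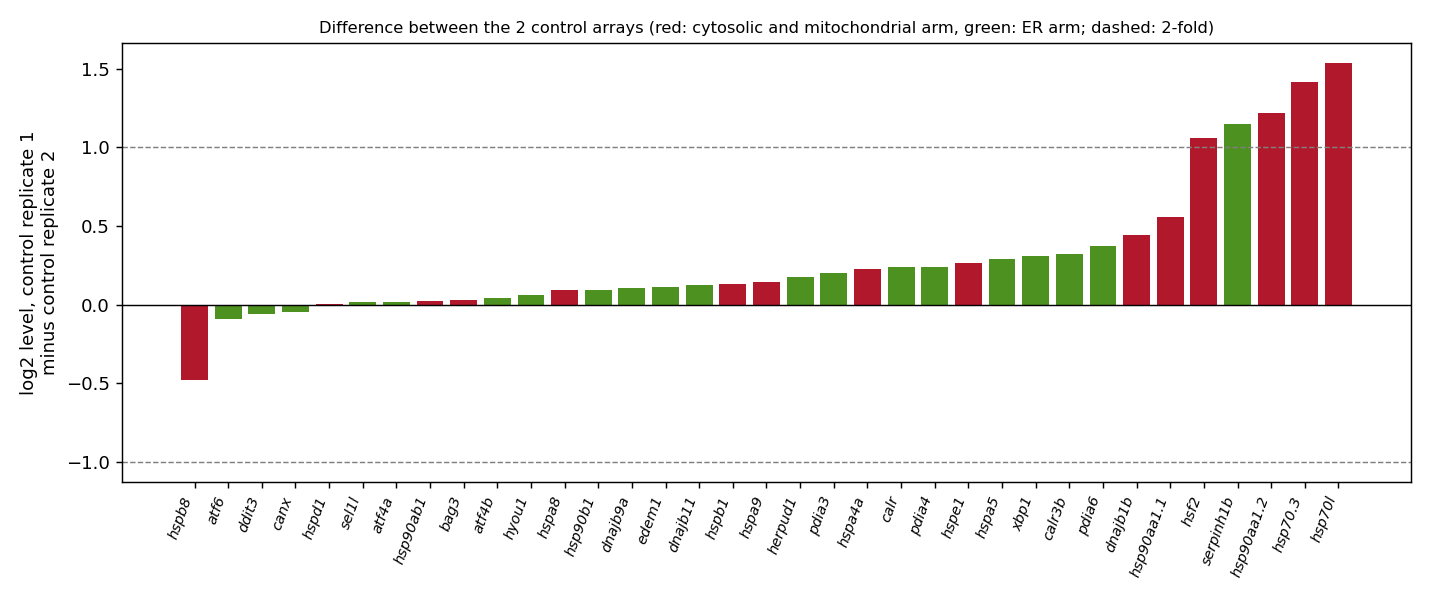
Log2 level in control replicate 1 minus that in control replicate 2 for the leading probe of each measured member, in order of size (red, cytosolic and mitochondrial arm; green, ER arm; dashed lines, 2-fold). The bars of hsf2, serpinh1b, hsp90aa1.2, hsp70.3 and hsp70l pass the upper line, none passes the lower one, and 31 of 35 are above 0.

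In the ER, the master chaperone hspa5 (BiP or Grp78), whose rise is the usual sign of the unfolded protein response, did not separate the groups. Its level was 5.94 and 5.65 in the controls, 5.83, 5.79 and 5.76 with ZnO NPs, and 5.77, 5.78 and 5.80 with ZnSO4. All exposed arrays lay between the controls. Its log2 fold change was 0.00073 with ZnO NPs (SE 0.09, 95% interval -0.21 to 0.22) and -0.01 with ZnSO4 (-0.23 to 0.21), and its 6 probes ranged from -0.05 to 0.06 and from -0.02 to 0.09. The ER form of HSP90, hsp90b1 (Grp94), had levels of 4.20 and 4.10 in the controls, 4.25, 4.26 and 4.17 with ZnO NPs, and 4.23, 4.23 and 4.20 with ZnSO4. Its log2 fold change was 0.08 (95% interval -0.08 to 0.24) and 0.07 (-0.09 to 0.23).

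The ER exchange factor hyou1 (Grp170), which renews the ATP-bound state of BiP, was the member with the largest positive change in the ER arm. Its level was -0.39 and -0.45 in the controls, -0.23, -0.16 and -0.18 with ZnO NPs, and -0.31, -0.15 and -0.23 with ZnSO4. Every exposed array was above both controls, with a log2 fold change of 0.23 (SE 0.07, adjusted p = 0.13) and 0.19 (adjusted p = 0.241). Another of its 3 probes gave -0.06 with ZnSO4, so the probes did not share a sign there. Of the BiP co-chaperones of the HSP40 family, dnajb9a differed by -0.12 and -0.18 in the log2 fold change, with all exposed arrays below both controls, and dnajb11 by 0.03 and 0.10.

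The collagen chaperone serpinh1b (Hsp47) resides in the ER but is itself a heat shock gene in vertebrates. Its level was 2.78 and 1.63 in the controls, 1.37, 1.07 and 1.29 with ZnO NPs, and 1.09, 1.22 and 1.17 with ZnSO4. All exposed arrays were below both controls, and the gap between the controls exceeded that between control replicate 2 and any exposed array. Its log2 fold change was -0.96 with ZnO NPs (SE 0.29, 95% interval -1.64 to -0.29, adjusted p = 0.125) and -1.04 with ZnSO4 (-1.72 to -0.37, adjusted p = 0.182). These intervals assume the same spread in all 3 groups, but the SD was 0.81 in the controls, 0.15 with ZnO NPs and 0.06 with ZnSO4. The other 2 probes gave -0.93 and -0.92 with ZnO NPs, and -1.1 and -1.07 with ZnSO4. Without control replicate 1 it was -0.39 and -0.47 (adjusted p = 0.336 and 0.339), and without control replicate 2 it was -1.53 and -1.62 (adjusted p = 0.0086 and 0.005). The summed signal of 6 connective tissue markers, collagens among them, was 364 to 371 in the controls. It was 396 to 440 with ZnO NPs and 355 to 384 with ZnSO4. At an unadjusted p under 0.05, 2 of the 6 markers (33.3%) were higher and 0 lower with ZnO NPs. Of all probes, 15.1% were higher and 10.0% lower. With ZnSO4, 1 marker was higher and 0 lower, where 9.16% of all probes were higher and 9.22% lower. All exposed arrays were above both controls for 5 of the 6 markers with ZnO NPs and 2 with ZnSO4. Of all probes, 23.7% and 19.6% showed this. The part of connective tissue content in the value of serpinh1b was not tested.

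The signalling genes of the unfolded protein response stayed close to control. The transcription factor xbp1, whose mRNA Ire1 splices, had levels of 4.68 and 4.37 in the controls, 4.23, 4.37 and 4.38 with ZnO NPs, and 4.44, 4.41 and 4.43 with ZnSO4. On its leading probe the groups overlapped, with a log2 fold change of -0.20 (95% interval -0.44 to 0.04) and -0.10 (-0.34 to 0.14). Another probe gave -0.16 in each exposure, with all exposed arrays below both controls, and a further probe gave -0.14 and -0.03. Whether the probes of xbp1 tell spliced from unspliced mRNA was not tested. The gene ddit3 (Chop), a factor of the apoptotic branch, had levels of 2.48 and 2.54 in the controls, 2.39, 2.53 and 2.56 with ZnO NPs, and 2.45, 2.31 and 2.33 with ZnSO4. The ZnSO4 arrays were all below both controls and the ZnO NP arrays were not. For ddit3 the log2 fold change was -0.02 (95% interval -0.21 to 0.17) and -0.15 (-0.34 to 0.04).

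Atf4 is the transcription factor that is translated when Perk slows protein synthesis. For atf4b the level was 2.38 and 2.33 in the controls, 2.30, 2.44 and 2.36 with ZnO NPs, and 2.26, 2.33 and 2.19 with ZnSO4. The log2 fold change was 0.01 (95% interval -0.17 to 0.19) and -0.09 (-0.27 to 0.08), and its paralog atf4a differed by 0.06 and 0.01. The ER-bound factor atf6, cut free under stress, had levels of -1.29 and -1.20 in the controls, -1.1, -1.23 and -1.32 with ZnO NPs, and -1.27, -1.17 and -1.63 with ZnSO4. Its low value on ZnSO4 replicate 3 widened its spread, and its log2 fold change was 0.03 (95% interval -0.30 to 0.36) and -0.11 (-0.44 to 0.22). The second probe of atf6 gave 0.18 and 0.15, with all exposed arrays above both controls, so its probes did not share a sign with ZnSO4.

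The lectin chaperones calnexin and calreticulin hold new glycoproteins, and protein disulfide isomerases form their disulfide bonds. For canx the level was 4.02 and 4.07 in the controls, 4.18, 4.28 and 4.18 with ZnO NPs, and 4.18, 4.19 and 4.27 with ZnSO4. All exposed arrays were above both controls, with a log2 fold change of 0.17 in each exposure (adjusted p = 0.182 and 0.258). For calr the level was 2.70 and 2.47 in the controls, 2.57, 2.67 and 2.55 with ZnO NPs, and 2.86, 2.69 and 2.69 with ZnSO4. These groups overlapped, with a log2 fold change of 0.01 and 0.16. The 4 probes of calr ranged from 0.01 to 0.35 with ZnO NPs and from -0.03 to 0.24 with ZnSO4. On the calr probe at 0.35 and 0.24, all exposed arrays were above both controls (adjusted p = 0.192 and 0.403). Its paralog calr3b differed by 0.12 and 0.14. For pdia3, the isomerase that works with both lectins, it was 2.59 and 2.4 in the controls, 2.38, 2.38 and 2.08 with ZnO NPs, and 2.32, 1.97 and 2.10 with ZnSO4. Every exposed array of pdia3 was below both controls, by -0.22 (adjusted p = 0.361) and -0.36 (adjusted p = 0.244) in the log2 fold change. With the slide's side as a block these were -0.12 and -0.06. The isomerases pdia4 and pdia6 differed by at most 0.11 in size, the latter by -0.07 and -0.11.

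ER-associated degradation, which returns misfolded proteins to the cytosol for breakdown, was covered by 3 genes. The adaptor of the ubiquitin ligase, sel1l, had levels of -0.33 and -0.35 in the controls, -0.14, -0.20 and -0.22 with ZnO NPs, and -0.28, -0.19 and -0.26 with ZnSO4. It was above both controls on all exposed arrays, by 0.15 and 0.10 in the log2 fold change (adjusted p = 0.201 and 0.442). The mannosidase-like edem1, which marks glycoproteins for removal, had levels of 0.81 and 0.70 in the controls, 0.64, 0.62 and 0.81 with ZnO NPs, and 0.75, 0.82 and 0.90 with ZnSO4. Its groups overlapped, at -0.06 and 0.07, as did those of herpud1, a scaffold of the same complex, at -0.03 and 0.03.

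**Figure D4:**
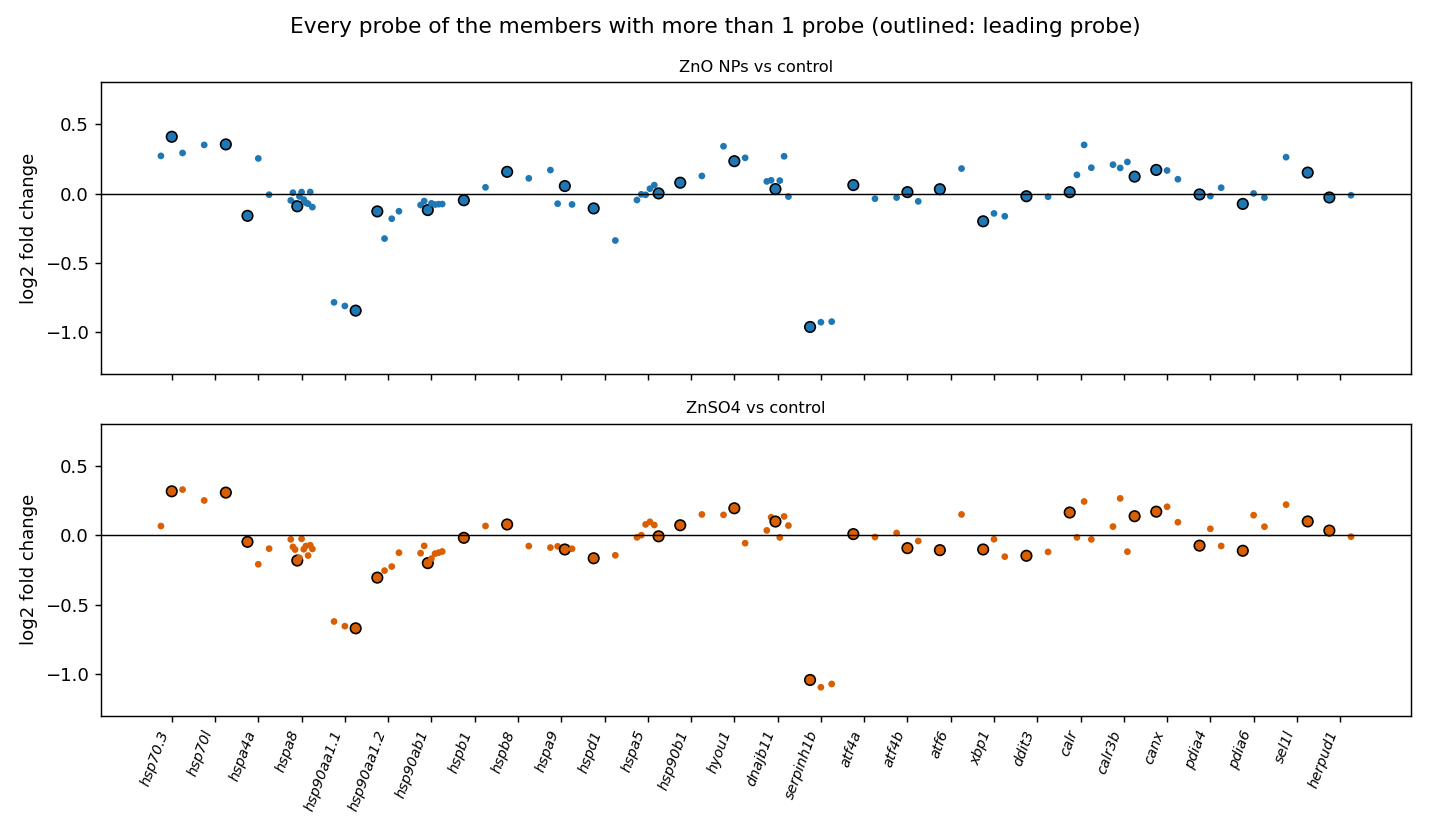
Log2 fold change against control of every probe of the members with more than 1 probe, for ZnO NPs (top) and ZnSO4 (bottom), with the leading probe of each gene outlined. The 3 probes of hsp90aa1.1 and the 3 of serpinh1b lie together well below 0 in both panels, whereas those of hspa5 and hspa8 lie near 0.

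Between the treatments, 2 member probes were higher with ZnO NPs than with ZnSO4 at an unadjusted p under 0.05 and 0 were lower, where 3.93% of all probes were higher and 1.77% lower. They were 1 probe of hspa4a with a log2 difference of 0.46 and 1 probe of calr3b with 0.35, each at adjusted p = 0.809. Neither was the leading probe of its gene, and they had the lowest mean signals among the member probes. The leading probes gave -0.11 for hspa4a and -0.01 for calr3b. The remaining probe of hspa4a gave 0.09, and those of calr3b gave 0.15 and -0.08. Of the leading probes, hspa9 and hsp90aa1.2 were higher on every ZnO NP array than on every ZnSO4 array, by 0.16 and 0.18, and xbp1 and calr were lower, by -0.10 and -0.15. Groups did not overlap in this way for 8.89% of all probes above and 5.43% below. The other probes of calr went the opposite way, at 0.15, 0.11 and 0.22, and those of hsp90aa1.2 gave -0.07, -0.0005 and 0.05. The other probes of hspa9 gave 0.26, 0.02 and 0.008, and those of xbp1 gave -0.11 and -0.008. Among these other probes of hspa9 and xbp1, the groups were apart only on the hspa9 probe at 0.26. The median log2 difference over leading probes was 0.06 in the cytosolic arm and 0.0393 in the ER arm, beside 0.0125 over all probes. ZnO NP replicate 3 was the one ZnO NP array on the side of the slide that held ZnSO4.

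Other genes of both pathways were taken from lists written for this comparison. Of 46 further cytosolic chaperones and co-chaperones, 42 were tested. With ZnO NPs 2 were higher and 11 lower at an unadjusted p under 0.05, where 15.1% of all probes were higher and 10.0% lower. With ZnSO4 2 were higher and 10 lower, where the shares of all probes were 9.16% and 9.22%. Of these genes 0 were called in each exposure. Their median log2 fold change was -0.142 and -0.115. The HSP40 dnaja1 had levels of -0.66 and -1.05 in the controls, -1.68, -1.51 and -1.43 with ZnO NPs, and -2.15, -1.91 and -1.80 with ZnSO4. Every exposed array was below both controls, at -0.68 (adjusted p = 0.105) in log2 fold change and -1.1 (adjusted p = 0.102). The second HSP40 dnajb1a gave -0.33 and -0.43, the HSP90 partner fkbp4 -0.25 and -0.23, and the chaperonin subunit cct4, which folds actin and tubulin, -0.28 and -0.21. The 2 higher genes were fkbp5 and hspb6. The HSP90 co-chaperone fkbp5, a known target of the glucocorticoid receptor, had levels of -0.29 and -0.24 in the controls, 0.76, 0.43 and 1.1 with ZnO NPs, and 0.59, 0.79 and 0.80 with ZnSO4. Its control arrays were alike and all exposed arrays stood above them, at 1.03 (adjusted p = 0.0887) in log2 fold change and 0.99 (adjusted p = 0.126). The small heat shock protein hspb6 gave 0.77 and 0.85 (adjusted p = 0.11 and 0.162). Of 42 further ER stress genes, 33 were tested. At an unadjusted p under 0.05, 0 were higher and 1 lower in each exposure, beside the same shares of all probes. The lower genes were derl3 (-0.22, adjusted p = 0.162) with ZnO NPs and mbtps2 (-0.20, adjusted p = 0.268) with ZnSO4.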

How the data were processed

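RNA of the 8 samples was labelled with Cy3, hybridized and scanned by the authors. Per the file headers, Feature Extraction 10.10.1.1 gave each of 62976 spots an intensity (the processed signal) after background subtraction. The authors also deposited log2 values per probe, scaled to the 75th percentile per array and centered by probe, which were used only as an alternative: they matched the values computed here within 0.01 for 99.94% of entries.

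Control and outlier spots were left out, spots of a probe were averaged, and the 75th percentile of an array was subtracted from its log2 processed signals. A probe was kept if all arrays of 1 or more groups measured it well above background (34617 of 43603). limma 3.58.1 in R 4.3.3 fitted the 3 groups together (5 residual and 2.42 prior degrees of freedom) without covariates. It took 1 spread per probe for all 3 groups, also where the control arrays lay further apart than the exposed ones. Probes were called at a fold change of 1.5 or more with an adjusted p under 0.05, with Benjamini-Hochberg adjustment over all probes tested. The number of arrays limits the precision, and p-values measure the spread between pooled samples. The fit was also run on data simulated with independent noise from the observed means and from the spreads as moderated by limma. Those moderated spreads are more alike between probes than the observed ones. It recovered 83% and 84% of simulated 2-fold changes for ZnO NPs and ZnSO4, with 3.21% and 4.69% of its calls false. The changed probes were drawn from all probes, and the simulated control arrays differed only by that noise. These shares therefore do not give the power in the data, in particular for members whose control arrays differed, such as hsp70l and serpinh1b. In the data, mt2 was not called at a log2 fold change of 1.02 with ZnSO4, nor was fkbp5 at 1.03 with ZnO NPs.

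Genes were named through RefSeq accessions and the gene table of GRCz12tu (25854 probes). No coordinates or sequences are given, since the array design uses another build. Members and lists were chosen with earlier results of these data known. Per-array values are given for the members with the 2 largest changes in each direction per arm and comparison and for hsp70l, hsp90aa1.1, hspa5, hsp90b1, ddit3, xbp1 and atf4b. Those of hspa8, hsp90ab1, hspd1, hspe1, sel1l and of genes outside the list were added after seeing the values. Alternatives changed the scaling, background correction, filter, test, blocks and arrays used. The arm medians over all probes, without serpinh1b, and without hsp90aa1.1 and hsf2 were chosen after seeing the data.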

Additional observations from a re-analysis of the deposited data

How the results depend on the processing

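The count of called member probes was 0 in all 3 comparisons under the other scalings, filters, background corrections and blocks. It was 6 with ZnO NPs and 6 with ZnSO4 at an unadjusted p with the same fold, and 5 and 6 with one-way ANOVA. Leaving out 1 array in turn gave 0 to 10 with ZnO NPs, 0 to 8 with ZnSO4 and 0 between the treatments, and control replicate 2 was the array whose absence gave the highest counts. Member probes at an unadjusted p under 0.05 numbered 12, 18 and 2, and 9 to 19, 8 to 22 and 1 to 6 leaving out 1 array. With only the 2 groups compared there were 11 with ZnSO4, and between the treatments there was 1 with a median shift and 1 with no filter on dim probes. Shares of all probes at an unadjusted p under these alternatives are not given.

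The median of the cytosolic arm was -0.063 and -0.117 with quantile normalization, -0.193 and -0.229 with a median shift, and -0.0639 and -0.0844 with normexp, for ZnO NPs and ZnSO4. The median shift moved the median of all probes to -0.055 and -0.0437. Over all probes of the arm the ZnSO4 value was -0.104. Leaving out 1 array gave -0.274 to -0.0469, -0.23 to -0.113 and, between the treatments, 0.0097 to 0.0823. The median of the ER arm was 0.0433 and 0.0692 with quantile normalization, -0.0807 and -0.0631 with a median shift, and 0.0426 and 0.0839 with normexp, so its sign depended on the scaling. With the slide's side as a block it was 0.0377 with ZnSO4 and -0.0194 between the treatments, and over all probes of the arm it was 0.0234 with ZnSO4. Leaving out 1 array gave -0.0744 to 0.0825, -0.0594 to 0.0896 and 0.0177 to 0.0498.

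Among named members, hsp90aa1.1 and serpinh1b passed the threshold with ANOVA, and hsf2, hsp90aa1.1, hsp90aa1.2 and serpinh1b without control replicate 2 (hsf2 at -1.12 and -1.13). Under that side block hsp70l was -0.36 and hsp70.3 -0.40 with ZnSO4, hsp90aa1.1 was -0.91 and -0.88, and the ZnSO4 values of hsp90b1, xbp1, ddit3, hspa4a, edem1 and atf6 were 0.16, -0.18, -0.25, -0.14, -0.11 and 0.04. The cause of these changes was not tested. Same-numbered samples did not deviate together (correlations of -0.068 to 0.151), so the numbers were not taken as pairs. With the replicate block, 16, 13 and 3 member probes passed an unadjusted p under 0.05, the count of calls stayed at 0, and the arm medians were -0.093, -0.141 and 0.06 for the cytosolic arm and 0.0184, 0.0009 and 0.0393 for the ER arm. Precision was lowest for the leading probes of hsp70l, hsp70.3 and hsp90aa1.2, whose standard errors against control were 0.42, 0.40 and 0.30.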
